A study of Mus musculus with 9 samples.

Results

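Calcineurin is the calcium- and calmodulin-dependent protein phosphatase. Here 10 mouse genes of the calcineurin pathway were followed, out of 17753 genes with a named row: the catalytic subunit genes Ppp3ca, Ppp3cb and Ppp3cc, the regulatory subunit gene Ppp3r1, the transcription factor genes Nfatc1, Nfatc2, Nfatc3 and Nfatc4, and the regulators of calcineurin Rcan1 and Rcan2. They were chosen by symbol, and each of the 10 had a single row in the table. RNA-seq had been done on brown fat, white fat and soleus, the postural muscle of the lower hind limb, from C57BL/6J male mice aged 3 months with no treatment or altered gene named, with 3 libraries per tissue and 9 in all. The labels speak of 3 mice but do not tie libraries to animals, and they do not name the depot of the white fat, so the tests measure only the spread between these libraries.

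When calcium rises, calmodulin binds and activates calcineurin, which strips phosphates from NFAT proteins so that they enter the nucleus. RCAN proteins bind calcineurin and restrain it. In skeletal muscle the pathway is known for maintaining slow fibres, of which the soleus holds many, and NFAT proteins are also known for their work in lymphocytes, blood vessels and adipocytes. Rcan1 is itself a known NFAT target, through an internal start that gives a short transcript.

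Values are FPKM, which scale fragment numbers for the length of each transcript and the size of each library, so that levels may be compared between genes. They are given for replicates 1, 2 and 3 in that order, or as mean ± SD (n = 3). Read totals were not given. Steps between low values placed the depths of the 9 libraries, relative to the shallowest, between 1 and 3.58. A leading marker gene of each tissue followed its label. The brown fat gene Ucp1 stood between 3386 and 4108 FPKM in brown fat and at most at 35.7 FPKM elsewhere. The leptin gene Lep stood between 213 and 223 FPKM in white fat and at most at 13.3 FPKM elsewhere. The slow muscle gene Myl2 stood between 8755 and 11002 FPKM in soleus and at most at 1.84 FPKM elsewhere. Cox8b, also listed as a brown fat marker, was high in soleus too, at 4243 to 5623 FPKM against 6035 to 6568 in brown fat. Signal of markers listed for another tissue was mostly uneven between libraries. RNA carried over from another tissue and the tissue's own expression cannot be told apart here. In brown fat, 3 fast muscle markers summed to 15.1, 127 and 63.0 FPKM, and 4 white fat markers to 145, 117 and 151 FPKM. In soleus these white fat markers summed to 150, 59.4 and 23.4 FPKM. In white fat, 4 brown fat markers summed to 68.4, 37.8 and 175 FPKM. In whole tissue, fewer cells of a type and less RNA per cell cannot be told apart.

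Because Rcan1 and Rcan2 had the widest ranges of the set, Rcan1 in FPKM and Rcan2 in ratio, the bases before their starts are shown first. RefSeq promoter windows on GRCm38.p6 matched 7 of the 10 genes with 12 starts, and Ppp3ca, Ppp3cc and Nfatc1 had no entry used here. The 250 bases upstream of both Rcan1 starts and of an internal Rcan2 start are printed, on the minus strand for Rcan1 and the plus strand for Rcan2, with each match to the NFAT core GGAAA, on either strand, in capitals.
Rcan1, upstream start, chr16:92466170-92466419: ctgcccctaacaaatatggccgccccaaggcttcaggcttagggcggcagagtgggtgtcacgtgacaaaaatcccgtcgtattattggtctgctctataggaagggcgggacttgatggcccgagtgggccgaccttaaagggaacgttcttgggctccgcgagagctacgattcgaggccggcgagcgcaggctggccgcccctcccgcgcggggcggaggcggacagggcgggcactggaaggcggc
Rcan1, internal start, chr16:92400079-92400328: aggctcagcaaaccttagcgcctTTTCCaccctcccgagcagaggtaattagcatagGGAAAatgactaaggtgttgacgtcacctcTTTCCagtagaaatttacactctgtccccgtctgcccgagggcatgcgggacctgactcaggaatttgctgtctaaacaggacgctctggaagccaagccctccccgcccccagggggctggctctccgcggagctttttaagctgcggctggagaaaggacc
Rcan2, internal start, chr17:43952749-43952998: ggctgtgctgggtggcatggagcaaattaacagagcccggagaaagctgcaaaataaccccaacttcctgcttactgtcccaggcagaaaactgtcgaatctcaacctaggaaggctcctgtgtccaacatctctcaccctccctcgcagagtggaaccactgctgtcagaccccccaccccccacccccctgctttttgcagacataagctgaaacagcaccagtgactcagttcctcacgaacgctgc
In the GENCODE M21 annotation all 3 windows lie within the bounds of their own gene and overlap no exon. The internal Rcan1 window held 3 matches to GGAAA, and 6.41% of 32536 distinct upstream windows of this length held at least 3. The upstream Rcan1 window and the printed Rcan2 window held 0. The other Rcan2 windows overlap exons of the gene, so they were not printed, and held 2 and 0. At least 2 were held by 21.5% of all windows. Nfatc2, Ppp3cb and Nfatc4 each had a window with 3 matches, as many as the internal Rcan1 window. The printed internal windows of Rcan1 and Rcan2 each held 1 match to the AP-1 motif TGANTCA, which 6.73% of windows held at least once. None of the 3 printed windows held a MEF2 element, which 2.89% of windows held. Matches describe letters, not bound sites. The deposited table joins both Rcan1 transcripts in a single row, so which start was used in which tissue could not be read from it.

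The RCAN genes were far higher in soleus than in either fat. Rcan1 stood at 109, 141 and 147 FPKM in soleus, 15.7, 15.9 and 13.8 FPKM in brown fat and 9.43, 8.10 and 8.59 FPKM in white fat. The lowest soleus library was above the highest fat library by a wide margin, and the brown and white fat ranges did not overlap either. Mean levels in soleus were 8.76 times those of brown fat and 15.2 times those of white fat. Among genes with a tissue mean of at least 1 FPKM, Rcan1 ranked at the 96.2 percentile in soleus, 68.5 in brown fat and 57.4 in white fat. On the log2(FPKM + 1) scale, which understates changes of low genes, Rcan1 was lower than in soleus by -3.04 in brown fat (SE 0.11, limma adjusted p = 1.2e-09) and by -3.77 in white fat (SE 0.11, limma adjusted p = 2.7e-10). Between the fats it was higher in brown fat by 0.73 (SE 0.11, limma adjusted p = 0.00017), a call lost after rescaling each library to a common total (TPM, adjusted p = 0.060, range over its alternatives 2.5e-05 to 0.060).

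Rcan2, the second member of the family, had an even wider range. It stood at 34.1, 40.0 and 44.4 FPKM in soleus, 1.39, 1.26 and 1.54 FPKM in white fat and 0.419, 0.359 and 0.548 FPKM in brown fat. No library of any tissue overlapped those of another, and the order of the fats was the reverse of that of Rcan1. The mean in soleus was 89.5 times that of brown fat and 28.2 times that of white fat. The log2 differences were -4.81 for brown fat against soleus (SE 0.10, limma adjusted p = 1.5e-11), -4.07 for white fat against soleus (SE 0.10, limma adjusted p = 5.8e-11) and -0.74 for brown against white fat (SE 0.10, limma adjusted p = 6.0e-05). Rcan2 passed the filter of at least 1 FPKM in at least 3 libraries only through white fat and soleus, so it had to differ from brown fat, and those differences are given as a description.

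The balance of the RCAN genes therefore differed by tissue. Rcan1 exceeded Rcan2 in every library, by 37.5, 44.3 and 25.2 times in brown fat, 6.76, 6.42 and 5.56 times in white fat and 3.21, 3.51 and 3.31 times in soleus. These 3 ranges did not overlap. Rcan1 and Rcan2 together came to 0.355 ± 0.0310 of the summed catalytic subunit FPKM in brown fat against 0.326 ± 0.0258 in white fat and 2.62 ± 0.192 in soleus. The brown and white fat libraries overlapped in this ratio, and all soleus libraries lay above them. Soleus replicate 1 was the lowest soleus library for both RCAN genes and held the most white fat marker signal. In brown fat, replicate 2, with the most fast muscle marker signal, had 0.359 FPKM of Rcan2, the lowest of the 3, and 15.9 FPKM of Rcan1, the highest. Whether this marker signal came from other tissue, and its part in the results, was not tested.

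**Figure D1:**
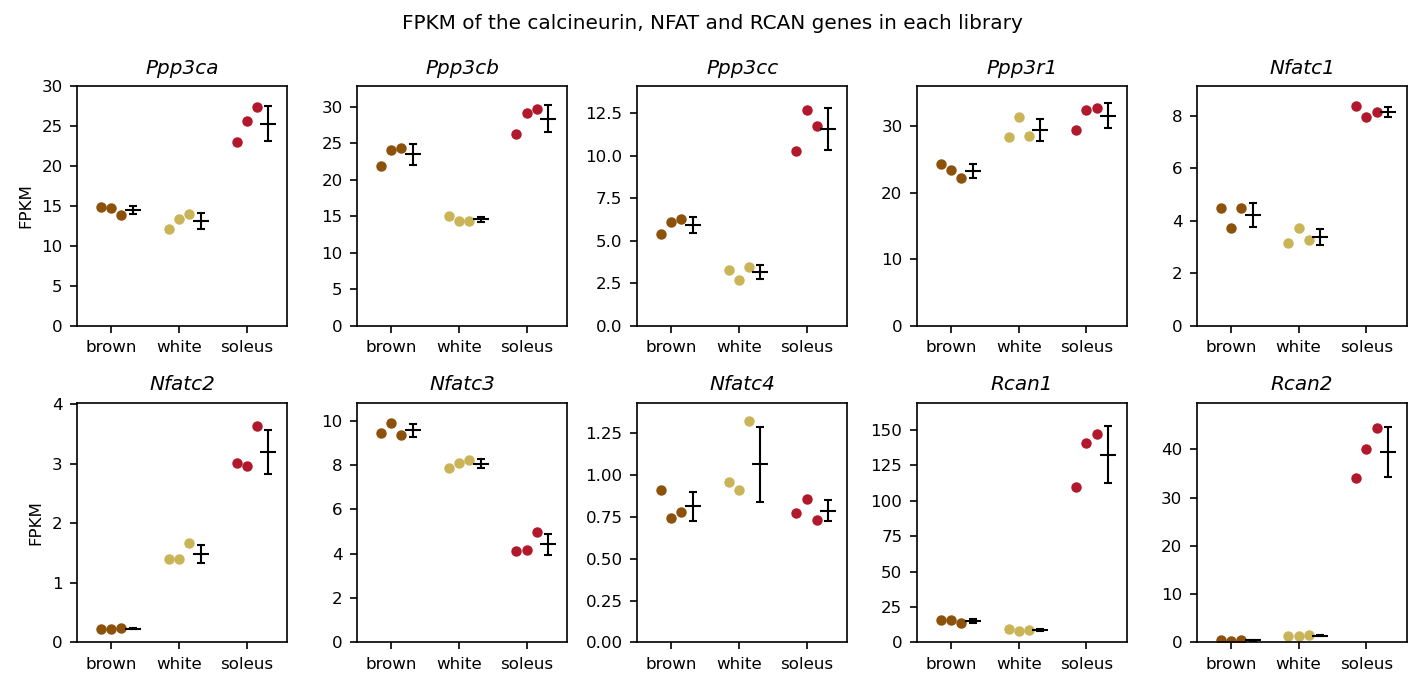
FPKM of each of the 10 genes (vertical axes, linear, each starting at 0) in the 9 libraries, grouped by tissue; dots are replicates 1, 2 and 3 from left to right, and the black bar is the mean ± SD of 3 libraries. Rcan1 and Rcan2 reach 147 and 44.4 FPKM in soleus, whereas Nfatc3 has its lowest libraries there, at 4.14 to 4.97 FPKM.

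In FPKM, the NFAT genes changed in makeup more than in total. Their summed level in brown fat was 14.9 ± 0.255 FPKM, against 14.0 ± 0.574 FPKM for white fat and 16.6 ± 0.803 FPKM for soleus (SD, n = 3), with every library between 13.4 and 17.5 FPKM. Nfatc3 made up 64.5% ± 2.92 of this sum in brown fat, against 57.6% ± 1.05 in white fat and 26.7% ± 1.56 in soleus. Nfatc1 made up 28.5% ± 2.63, 24.2% ± 1.87 and 49.3% ± 2.40 in the same order. The fats thus had more Nfatc3 than Nfatc1, with a ratio of 2.09 to 2.67 in brown and 2.19 to 2.50 in white fat, and soleus had less, with a ratio of 0.495 to 0.609. Such shares and ratios are taken within a library and do not move with the scaling of whole libraries. The summed level does move with it, and was not computed with other scalings. The FPKM of a whole library summed to 214066 to 235019 in white fat. In brown fat this total was 328326 to 343132 and in soleus 309664 to 353399.

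Nfatc1, known as a gene induced by NFAT activity in several cell types, stood at 8.36, 7.97 and 8.16 FPKM in soleus, 4.51, 3.72 and 4.47 FPKM in brown fat and 3.15, 3.71 and 3.29 FPKM in white fat. All soleus libraries lay above all fat libraries, whereas the lowest brown fat library and the highest white fat library nearly met. Nfatc1 was lower than in soleus by -0.81 in brown fat (SE 0.08, limma adjusted p = 4.0e-06) and by -1.07 in white fat (SE 0.08, limma adjusted p = 3.3e-07). The difference of 0.25 between brown and white fat (SE 0.08, limma adjusted p = 0.017) did not hold up. It turned to -0.25 with TPM rescaling (adjusted p = 0.083), and missed the threshold with upper quartile scaling (0.090) and without brown fat replicate 1 (0.058), brown fat replicate 3 (0.061), white fat replicate 1 (0.063) or white fat replicate 3 (0.054), over a range of 0.0021 to 0.090. Summed over 6 endothelial markers, a cell type that can express Nfatc1, the libraries held 84.3 to 88.1 FPKM in brown fat against 40.6 to 63.2 in white fat and 42.1 to 46.6 in soleus. Of the 6, Tek and Vwf had higher means in white than in brown fat. The part of endothelial cells in the Nfatc1 levels was not tested.

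Nfatc2, a factor best known from T cells, was the NFAT gene with the widest range. It stood at 3.01, 2.97 and 3.63 FPKM in soleus, 1.41, 1.4 and 1.67 FPKM in white fat and 0.223, 0.229 and 0.235 FPKM in brown fat. The 3 tissues did not overlap, and the brown fat libraries lay close together. The mean in soleus was 14.0 times that of brown fat, and the mean in white fat 6.51 times that of brown fat. Log2 differences were -1.02 for brown against white fat (SE 0.08, limma adjusted p = 7.3e-07), -1.77 for brown fat against soleus (SE 0.08, limma adjusted p = 5.5e-09) and -0.75 for white fat against soleus (SE 0.08, limma adjusted p = 5.0e-06). Nfatc2 also passed the filter on low values only through white fat and soleus, and its differences from brown fat are to be read in the same way.

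Markers of immune cells were read beside Nfatc2. The summed level of 6 T cell markers was 0.916 to 1.72 FPKM in brown fat against 1.44 to 2.99 in white fat and 0.0822 to 0.198 in soleus, and none of the 6 reached a mean of 1 FPKM in any tissue. The 4 measured macrophage markers of 6 summed to 30.0 to 35.5, 293 to 375 and 21.7 to 29.2 FPKM in the same order. Both lists were lowest in soleus. The 4 B cell markers summed to 0.804 to 1.31 FPKM in brown fat, 1.57 to 2.29 in white fat and 0.435 to 1.02 in soleus. White fat had more than brown fat of the macrophage markers and of Nfatc2. The part of immune cells in the Nfatc2 levels of any tissue was not tested.

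Nfatc3 ran the other way. It stood at 9.47, 9.91 and 9.34 FPKM in brown fat, 7.87, 8.11 and 8.24 FPKM in white fat and 4.14, 4.18 and 4.97 FPKM in soleus. The ranges of the 3 tissues did not overlap. It was the only tested gene of the set that was called higher in both fats than in soleus, by 0.97 in brown fat (SE 0.07, limma adjusted p = 4.4e-07) and 0.74 in white fat (SE 0.07, limma adjusted p = 3.1e-06), with the same call in all 20 alternatives for each. The difference of 0.22 between brown and white fat (SE 0.07, limma adjusted p = 0.020) turned to -0.33 with TPM rescaling (adjusted p = 0.0090). It missed the threshold with upper quartile scaling (0.077) and without brown fat replicate 2 (0.066) or white fat replicate 1 (0.061), over a range of 0.0036 to 0.077.

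Nfatc4 was low in every tissue, at 0.913, 0.746 and 0.782 FPKM in brown fat, 0.956, 0.914 and 1.32 FPKM in white fat and 0.775, 0.858 and 0.730 FPKM in soleus. Only white fat replicate 3 reached 1 FPKM, so it did not pass the filter of at least 1 FPKM in at least 3 libraries. In a fit without that filter, on 14538 genes, the white fat against soleus difference of 0.20 had an adjusted p of 0.047 (limma, SE 0.08), and the other comparisons had adjusted p-values of 0.077 and 0.87.

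**Figure D2:**
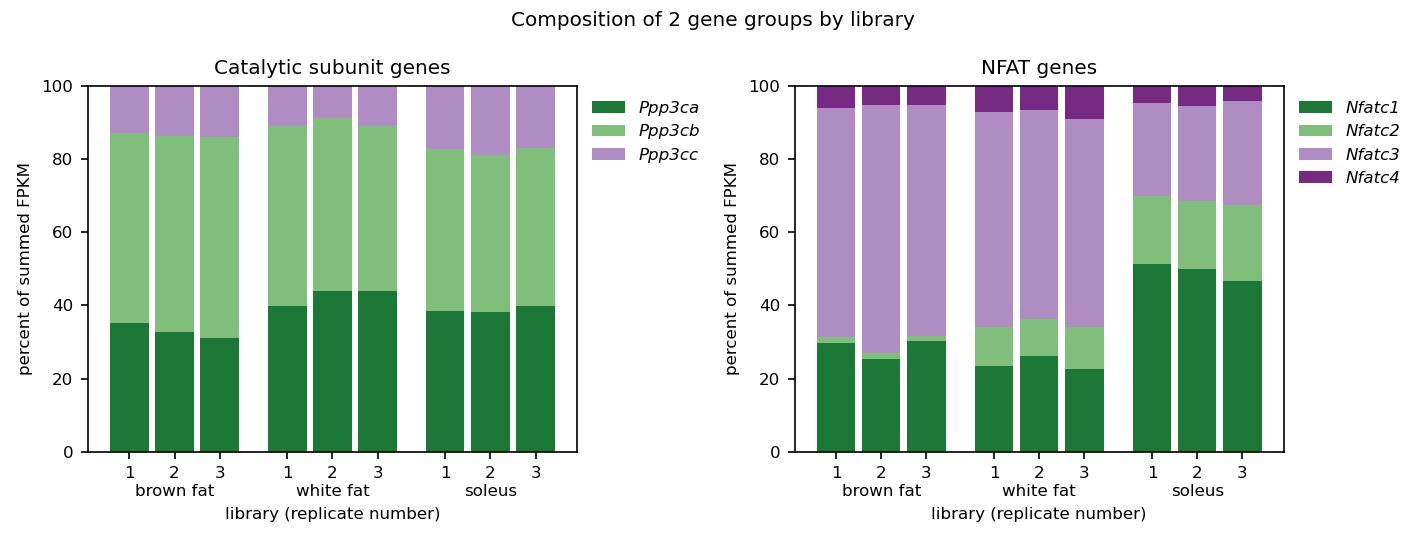
Percent of summed FPKM within the catalytic subunit genes (left) and within the NFAT genes (right), 1 stacked bar per library, grouped by tissue. Nfatc3 holds 56.7% to 67.9% of the NFAT bars in the fats and 25.4% to 28.4% in soleus, while Ppp3cb is the largest catalytic share in every library, at 43.1% to 54.8%.

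The phosphatase subunit genes spanned narrower ranges than the RCAN genes. Ppp3cb, the beta catalytic subunit gene, stood at 26.4, 29.1 and 29.8 FPKM in soleus, 21.9, 24.2 and 24.4 FPKM in brown fat and 15.0, 14.4 and 14.4 FPKM in white fat. The 3 tissues did not overlap. Brown fat was lower than soleus by -0.26 (SE 0.07, limma adjusted p = 0.0071) and white fat by -0.91 (SE 0.07, limma adjusted p = 5.1e-07). Brown fat was higher than white fat by 0.65 (SE 0.07, limma adjusted p = 1.5e-05), a difference that was 0.09 with TPM rescaling (adjusted p = 0.26, range over its alternatives 5.3e-06 to 0.26).

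Ppp3ca, the alpha catalytic subunit gene, stood at 23.0, 25.7 and 27.4 FPKM in soleus, 14.9, 14.8 and 13.9 FPKM in brown fat and 12.1, 13.4 and 14.1 FPKM in white fat. The fats overlapped and soleus lay above both. It was lower than in soleus by -0.76 in brown fat (SE 0.08, limma adjusted p = 8.0e-06) and by -0.89 in white fat (SE 0.08, limma adjusted p = 1.7e-06). The difference of 0.13 between the fats was not called (SE 0.08, limma adjusted p = 0.19, range 0.0012 to 0.74). It passed with median of ratios scaling at 0.19 (adjusted p = 0.045) and, in the other direction, with TPM rescaling at -0.44 (adjusted p = 0.0012).

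Ppp3cc, the gamma catalytic subunit gene, had the lowest level of the catalytic genes in every library and the widest range. It stood at 10.3, 12.7 and 11.8 FPKM in soleus, 5.39, 6.11 and 6.28 FPKM in brown fat and 3.30, 2.70 and 3.49 FPKM in white fat, with no overlap between tissues. Its share of the catalytic sum was 17.7% ± 0.964 in soleus, 13.5% ± 0.648 in brown fat and 10.2% ± 1.16 in white fat. Brown fat exceeded white fat by 0.74 (SE 0.10, limma adjusted p = 6.0e-05) and was lower than soleus by -0.86 (SE 0.10, limma adjusted p = 1.4e-05), and white fat was lower than soleus by -1.59 (SE 0.10, limma adjusted p = 6.2e-08). All 3 calls stood in all 20 alternatives.

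The order Ppp3cb above Ppp3ca above Ppp3cc held in all 9 libraries. In white fat the means of Ppp3cb and Ppp3ca lay close, at 14.6 ± 0.357 and 13.2 ± 0.999 FPKM, and white fat replicate 3 held 14.4 and 14.1 FPKM. In brown fat the same genes stood apart, at 23.5 ± 1.4 and 14.5 ± 0.533 FPKM.

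Ppp3r1, which encodes the calcium-binding regulatory subunit B, stood at 24.3, 23.3 and 22.2 FPKM in brown fat, 28.3, 31.3 and 28.6 FPKM in white fat and 29.4, 32.5 and 32.8 FPKM in soleus. Brown fat was lowest without overlap, and white fat and soleus overlapped. It was lower in brown fat than in white fat by -0.32 (SE 0.08, limma adjusted p = 0.0027) and than in soleus by -0.42 (SE 0.08, limma adjusted p = 0.00037), with the same calls in all 20 alternatives. White fat against soleus, at -0.10, was not called (SE 0.08, limma adjusted p = 0.24, range 2.2e-05 to 0.45). That comparison depended on scaling. It was called lower in white fat at -0.56 with median of ratios (adjusted p = 2.2e-05), -0.38 with upper quartile (0.00040) and -0.19 with quantile normalization (0.027), and higher in white fat at 0.45 with TPM rescaling (0.00030).

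Subunit balance was therefore different in white fat. The ratio of Ppp3r1 to the summed catalytic FPKM was 0.929, 1.03 and 0.893 in white fat, 0.577, 0.518 and 0.498 in brown fat and 0.494, 0.481 and 0.475 in soleus. All white fat libraries lay above all others, and the lowest brown fat library lay just above the highest soleus library. The summed catalytic level was 31.0 ± 0.885 FPKM in white fat, 43.9 ± 1.57 in brown fat and 65.3 ± 5.02 in soleus. Unlike the ratio, this sum moves with the scaling of whole libraries. With TPM rescaling the brown against white fat difference was 0.09 for Ppp3cb and -0.44 for Ppp3ca, while Ppp3cc stayed higher in brown fat. Ppp3r2, the gene of the other subunit B form, which is known from testis, was listed at 0 in all 9 libraries.

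Over the tested set, 8 of 9 genes were called between brown and white fat, 5 higher and 3 lower in brown fat, where 72.8% of all 9913 genes were called, 38.0% higher and 34.8% lower. That share is close to the background, and with TPM rescaling the split was 1 higher and 5 lower. Between brown fat and soleus all 9 were called, with 78.5% of all genes called, and 8 of them were lower in brown fat, as were 25.6% of all genes, and 1 higher, as were 52.9%. Between white fat and soleus 8 of 9 were called, with 84.2% of all genes called, and 7 were lower in white fat, as were 29.7% of all genes, and 1 higher, as were 54.5%. A called difference of at least 1 log2 unit was seen for 1 of 9 members between the fats (26.4% of all genes), 3 of 9 between brown fat and soleus (32.9%) and 4 of 9 between white fat and soleus (41.2%). Library ranges did not overlap for 8, 9 and 8 of the 9 in these comparisons, and for 77.4%, 81.1% and 85.6% of all genes. The median log2 difference of the tested members was 0.22, -0.81 and -0.91 in these 3 comparisons, beside 0.03, 0.29 and 0.35 for all genes. Of all calls, 67.4% were higher in brown fat than in soleus and 64.7% higher in white fat than in soleus, and these shares fell to 49.3% and 48.7% with median of ratios scaling. These counts and medians hold Nfatc2 and Rcan2, which passed the filter through the tissues where they are high, and leave out Nfatc4, so they are descriptions. The comparisons share tissues and so are not independent of each other.

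**Figure D3:**
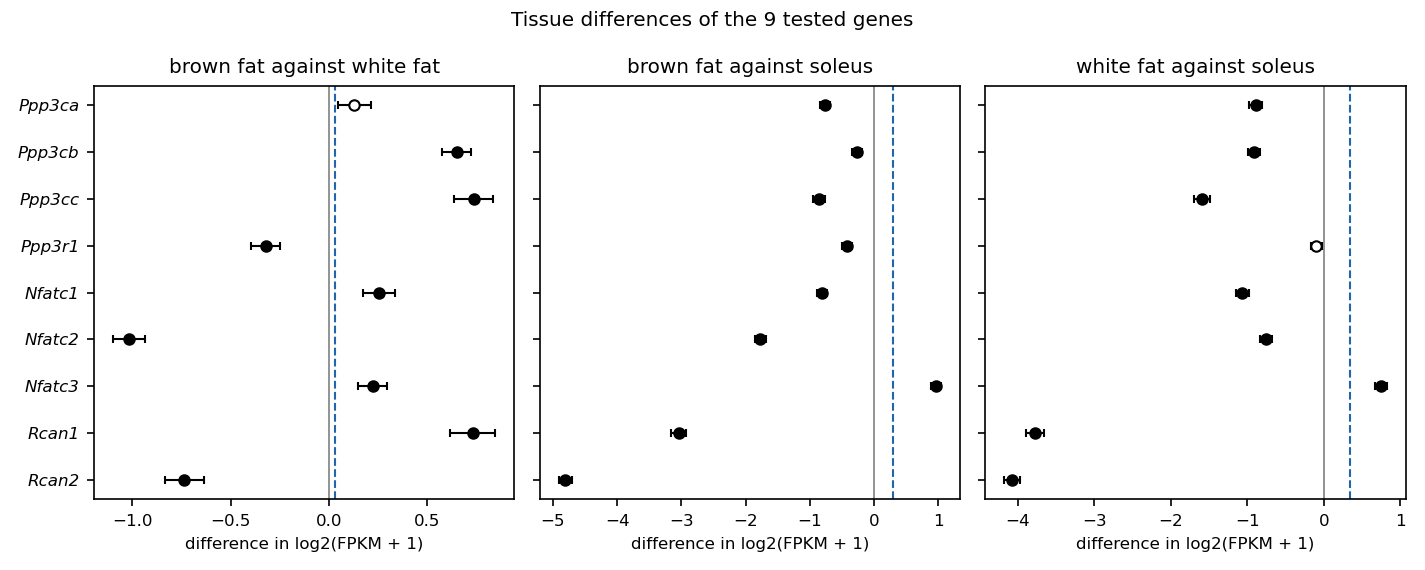
Difference in log2(FPKM + 1) between tissues (horizontal axes, separate ranges) for the 9 tested genes, with bars of 1 SE; filled circles were called at an adjusted p under 0.05 and open ones were not, the grey line marks 0 and the dashed line the median of all 9913 genes. Against soleus, 8 genes in brown fat and 8 in white fat lie left of 0, and Nfatc3 alone lies right of it in both panels.

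Genes whose pattern over the 9 libraries was nearest to that of a member were sought for the 5 members with a range of tissue means of at least 1 log2 unit. Likeness was the root mean square difference of centred log2 values, in log2 units. Nearest to Rcan1 were Ppp2r3a, which encodes a regulatory subunit of another phosphatase, at 0.13, Phtf2 at 0.14 and Fkbp3 at 0.17. Ppp2r3a stood at 5.92 ± 0.227 FPKM in brown fat against 3.04 ± 0.182 in white fat and 54.1 ± 8.25 in soleus. Nearest to Rcan2 were Dtna, which encodes alpha-dystrobrevin, at 0.10, Epdr1 at 0.13 and Mef2c, a muscle transcription factor gene, at 0.15. Dtna stood at 0.144 ± 0.00653, 1.08 ± 0.172 and 34.8 ± 4.13 FPKM in the same order.

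For Nfatc2 the nearest were Wnt5b at 0.08, the paxillin gene Pxn at 0.12 and Tgfb2 at 0.13, for Nfatc1 Olfml2a at 0.05 and Tiam2 and Tagap1 at 0.07 each, and for Ppp3cc Dnajc12 and Klhdc2 at 0.09 each and Zfp428 at 0.10. These names depended on the scale. Of the 3 nearest to each gene, 0 to 2 stayed among the nearest 3 with a pseudocount of 0.1, 1 at most with a pseudocount of 5, and 0 to 2 with TPM rescaling, settings chosen after seeing the data.

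Other genes of the pathway were read from fixed lists, 42 genes of which 37 had a row and 33 were tested. Over all tested genes, 38.0% were called higher and 34.8% lower in brown fat than in white fat, 52.9% higher and 25.6% lower in brown fat than in soleus, and 54.5% higher and 29.7% lower in white fat than in soleus. No list is set apart from these shares by a test. In the list of calcineurin inhibitors, anchors and homologs, 4 of 8 tested genes were lower and 2 higher in brown fat than in soleus, with a median of -1.42 (25.6% and 52.9% of all genes), and 4 were lower and 4 higher in white fat than in soleus, with a median of -1.35 (29.7% and 54.5%). Of these 8, Myoz1, Myoz2, Myoz3 and Akap6 passed the filter on low values through soleus, where they are high, so these counts and medians are descriptions only. The calsarcin genes Myoz1, Myoz2 and Myoz3, whose products tie calcineurin to the muscle Z-disc, stood at 462 ± 22.7, 1227 ± 162 and 17.6 ± 2.80 FPKM in soleus. In brown fat they had means of 2.63, 0.176 and 0.197 FPKM and in white fat of 0.0418, 0.0219 and 0.0252 FPKM. Myoz1 in brown fat, at 0.618, 4.80 and 2.47 FPKM, was highest in the library with the most fast muscle marker signal and lowest in that with the least. It was called higher in brown than in white fat, by 1.62 (SE 0.34, limma adjusted p = 0.0014), and the part of muscle RNA in that call was not tested. Between the fats this list had 2 higher and 2 lower genes in brown fat, with a median of 0.12.

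Akap6, which encodes an anchoring protein that holds calcineurin near calcium stores, stood at 7.80 ± 1.70 FPKM in soleus, 0.0561 ± 0.0194 in brown fat and 0.0244 ± 0.00593 in white fat. Atp2b4, the gene of a plasma membrane calcium pump that binds and restrains calcineurin, was instead a white fat gene here, at 37.0 ± 3.31 FPKM against 1.98 ± 0.331 in brown fat and 1.56 ± 0.377 in soleus. Its log2 difference was -3.67 for brown against white fat (SE 0.12, limma adjusted p = 1.6e-09) and 3.90 for white fat against soleus (SE 0.12, limma adjusted p = 3.1e-10). Cabin1, a calcineurin inhibitor gene, stood at 5.96 ± 0.108 FPKM in brown fat against 7.42 ± 0.760 in white fat and 2.94 ± 0.210 in soleus, and was higher in both fats than in soleus (log2 difference 0.82 and 1.09). Cib1, which encodes a calcium-binding protein akin to subunit B, stood at 43.7 ± 3.19, 28.2 ± 5.54 and 7.41 ± 0.841 FPKM. The member of the list with the highest level in fat was Fkbp8, an anchor and inhibitor gene, at 53.7 ± 2.97, 61.9 ± 6.95 and 46.8 ± 3.32 FPKM in the same order.

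Calmodulin genes supply the calcium sensor, and both of those read here were abundant in all 3 tissues. Calm2 stood at 75.0 ± 1.64, 96.9 ± 4.44 and 96.7 ± 7.13 FPKM in brown fat, white fat and soleus, and Calm3 at 31.4 ± 2.31, 53.1 ± 4.95 and 42.3 ± 2.42. Brown fat had less of both than white fat, by -0.37 and -0.74, with the same call in all 20 alternatives. Brown fat also had less of both than soleus, by -0.36 and -0.42. Between white fat and soleus Calm3 was called higher in white fat, by 0.32 (SE 0.09, limma adjusted p = 0.0068), a call lost with upper quartile scaling and turned to -0.15 with median of ratios scaling. Calm2 was not called there, at 0.0051 (SE 0.08, limma adjusted p = 0.95), and was -0.47 with median of ratios scaling and 0.56 with TPM rescaling.

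Of the genes of store-operated calcium entry, which refills calcium stores and feeds calcineurin, Orai1, the pore gene, stood at 17.9 ± 1.22 FPKM in soleus, 3.10 ± 0.283 in brown fat and 3.66 ± 0.0384 in white fat. Stim1, the sensor gene, stood at 55.0 ± 8.76, 28.6 ± 1.95 and 24.3 ± 4.05 FPKM in soleus, brown fat and white fat, and was lower in both fats than in soleus, by -0.91 and -1.15. Stim2, its paralog, ran the other way at 1.63 ± 0.0806, 2.54 ± 0.308 and 3.56 ± 0.212 FPKM. In each comparison with soleus, 2 of 3 tested genes of this list were lower in fat (25.6% of all genes for brown and 29.7% for white fat) and 1 higher, Stim2, which was not called higher in brown fat with upper quartile or median of ratios scaling. Between the fats, Stim2 and Orai1 were called lower in brown fat (34.8% of all genes). The Orai1 difference of -0.19 was marginal (SE 0.08, limma adjusted p = 0.046), was lost in 11 of 20 alternatives (range 3.9e-05 to 0.51) and missed the threshold with the replicate block (0.061).

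NFAT kinases push NFAT out of the nucleus. With the NFAT-binding regulators they made a list of 11 tested genes, of which brown fat had 5 higher and 4 lower than white fat. That compares with 38.0% and 34.8% of all genes. Relative to soleus, 5 were higher and 5 lower in brown fat (52.9% and 25.6% of all genes), and 2 were higher and 6 lower in white fat (54.5% and 29.7%). Median differences were 0.03, -0.03 and -0.24. The list holds Homer2, which passed the filter on low values through soleus, and Nfatc2ip, which passed through white fat and soleus. These counts and medians are therefore descriptions only. These splits moved with scaling. With TPM rescaling they were 3 and 6 between the fats and 5 and 3 in white fat against soleus (median 0.26), and with median of ratios scaling 1 and 9 in the latter (median -0.67). Gsk3a, a kinase gene, was highest in brown fat, at 42.8 ± 3.30 FPKM against 17.7 ± 0.866 in white fat and 25.7 ± 2.11 in soleus. Dyrk1b, another kinase gene, stood at 14.1 ± 0.690, 6.05 ± 0.241 and 19.9 ± 3.31 FPKM in brown fat, white fat and soleus. Csnk1a1 had the highest mean of the list, at 55.8 ± 2.46, 54.5 ± 1.83 and 56.9 ± 4.41 FPKM, and was called in none of the 3 comparisons (limma adjusted p = 0.72, 0.77 and 0.48).

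Homer proteins compete with calcineurin for NFAT, and their genes parted. Homer2 stood at 0.126 ± 0.0197 FPKM in brown fat against 0.403 ± 0.0728 in white fat and 37.4 ± 5.06 in soleus. Homer3 stood at 1.99 ± 0.221, 4.05 ± 0.334 and 1.21 ± 0.0801 FPKM in the same order. Homer2 passed the filter on low values through soleus alone, so its levels are given as a description. Homer3 was higher than in soleus by 0.43 in brown fat (SE 0.08, limma adjusted p = 0.00054) and 1.19 in white fat.

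The last list held further calcineurin substrates and Nfat5, an NFAT relative that does not need calcineurin. Between the fats, 4 of 8 tested genes were higher in brown fat and 3 lower (median 0.02), beside 38.0% and 34.8% of all genes. This split was 2 and 5 with TPM rescaling (median -0.55), 3 and 0 with quantile normalization, and 3 and 3 with the replicate block, where the call of Crtc2 was lost. Relative to soleus, 3 were higher and 3 lower in brown fat (median 0.17, beside 52.9% and 25.6% of all genes), and 3 higher and 4 lower in white fat (median -0.27, beside 54.5% and 29.7%). The white fat split was 4 and 2 with TPM rescaling and 1 and 5 with median of ratios scaling, and the brown fat split 1 and 4 with the latter. Mef2c stood at 61.7 ± 13.2 FPKM in soleus, 1.42 ± 0.179 in brown fat and 2.37 ± 0.260 in white fat. Mef2d, a second gene of that family, stood at 31.0 ± 2.34, 16.8 ± 0.943 and 6.01 ± 0.413 FPKM in the same order, without overlap. Dnm1l, the mitochondrial fission gene whose product calcineurin dephosphorylates, had the highest level of the list in brown fat, at 23.3 ± 0.673 FPKM, with 12.7 ± 0.701 in white fat and 18.7 ± 2.26 in soleus. Nfat5 stood at 3.27 ± 0.231 FPKM in brown fat against 3.78 ± 0.366 in white fat and 2.52 ± 0.158 in soleus. Its log2 differences from soleus were 0.28 in brown fat (SE 0.08, limma adjusted p = 0.0083) and 0.44 in white fat. The call in brown fat was lost with each of the 4 other scalings (adjusted p = 0.051 to 0.99), and the difference turned to -0.03 with median of ratios scaling.

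Immunophilins are the drug-binding partners of calcineurin inhibitors. Fkbp1a stood at 67.5 ± 1.32 FPKM in brown fat against 127 ± 10.7 in white fat and 51.5 ± 3.03 in soleus, and was called in all 3 comparisons, although its difference between brown fat and soleus, 0.38, turned to -0.0220 with median of ratios scaling. Ppia was listed at no more than 1.23 FPKM in any library and did not pass the filter on low values. It is known to have many near-identical copies, so its level is uncertain.

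**Figure D4:**
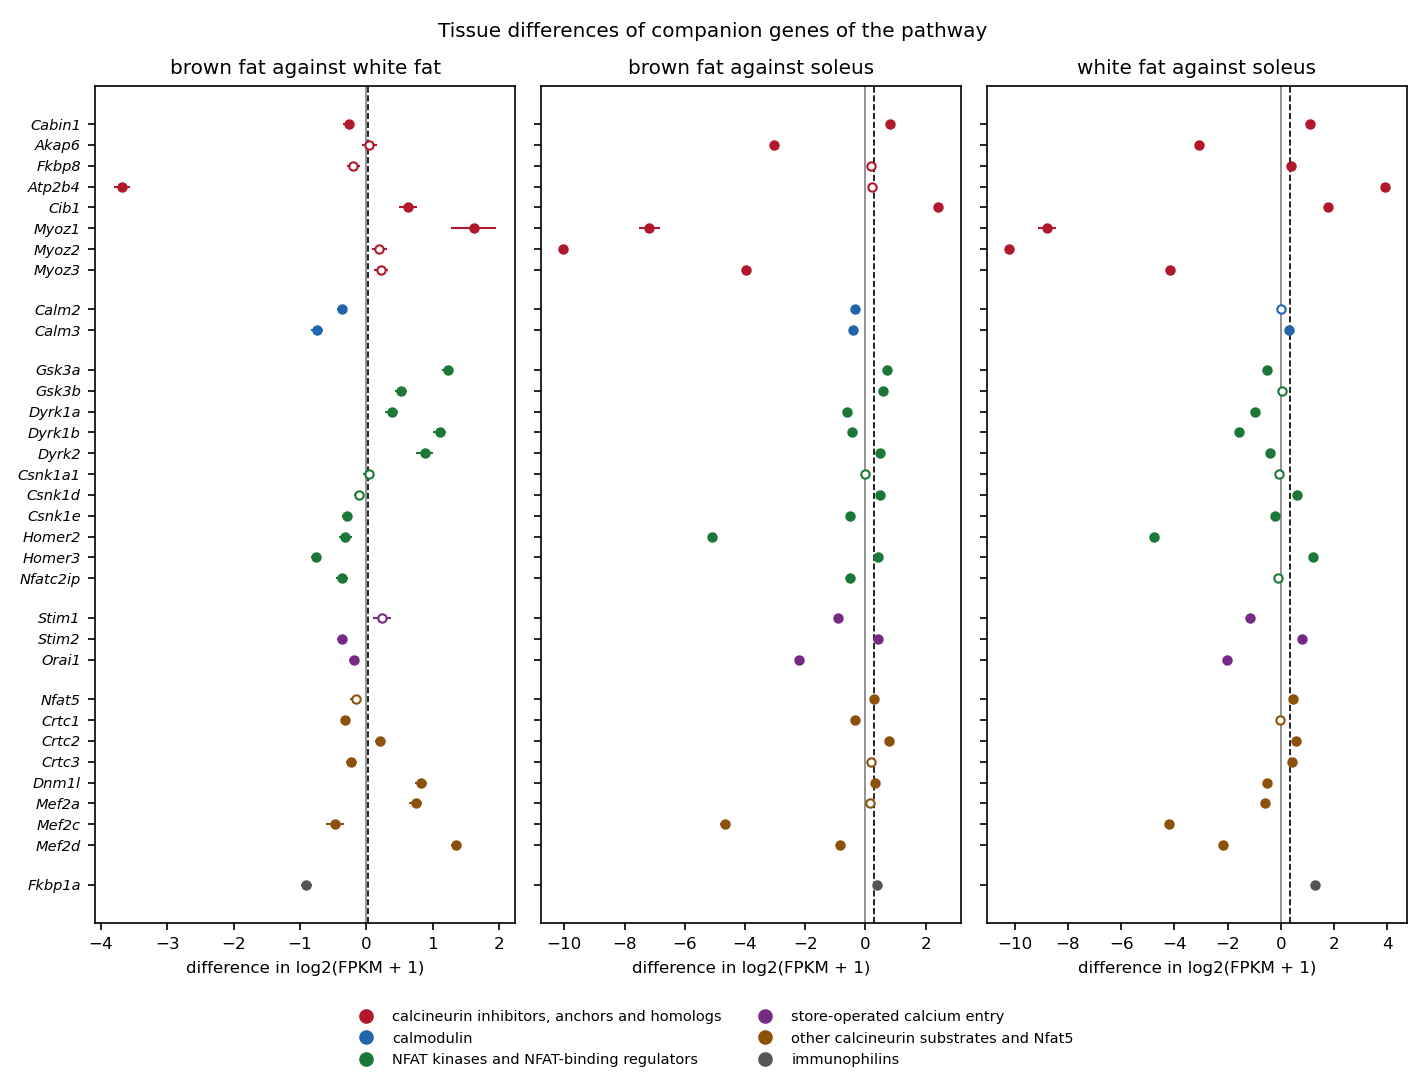
Difference in log2(FPKM + 1) between tissues (horizontal axes, separate ranges) for 33 companion genes, coloured by list, with bars of 1 SE; filled circles were called at an adjusted p under 0.05, the grey line marks 0 and the dashed line the median of all genes. Myoz1, Myoz2 and Homer2 lie farthest left in both panels with soleus, and Atp2b4 lies far left against white fat in the first panel and far right in the third.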

How the data were processed

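RNA-seq libraries from brown fat, white fat and soleus, 3 per tissue, were analysed from the deposited table of FPKM. A row of it can join several RefSeq transcripts. Per the submitters' processing notes, the tools were TopHat 1.4.1 and Cufflinks 2.0.1 and the build mm9. FPKM are not counts, so no count model was used, and read totals were not given in the sources used here. Of 18401 rows, 18302 were named through RefSeq and 41 through GENCODE. The 55 rows without a symbol and the 3 rows with several symbols were left out, and together held at most 0.360% of a library. Rows of a symbol were summed, giving 17753 genes, and 5 listed companion genes with no matching row (Rcan3, Chp1, Chp2, Orai3 and Tfeb) were not analysed here. Another gene of the companion lists is not reported here.

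The 9913 genes that reached 1 FPKM in 3 or more libraries were tested on log2(FPKM + 1) with limma 3.58.1 in R 4.3.3, two-sided and with a mean-variance trend, in a single fit of the 9 libraries with 6 residual degrees of freedom. P-values were adjusted by Benjamini-Hochberg over all tested genes in each comparison, with calls at an adjusted p under 0.05. The self-test used simulated data with 9913 genes, of which 100 were changed by 0.5 and 100 by 1 log2 unit. It recovered 65% and 98% of these for brown against white fat and 55% and 97% for brown fat against soleus. For white fat against soleus it recovered 71% and 93%. False calls numbered 11, 14 and 8 in this order. In the data 72.8% to 84.2% of genes were called, far more than were changed in the simulation, so the recovery need not carry over.

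The members and lists were chosen with earlier results of these data known. By plan, all members were named. From each companion list the plan took the gene with the highest mean and, each way, the 2 genes that changed most among those called. It also took the 3 genes nearest in pattern to each member with a range of at least 1 log2 unit. Some companions that the plan picked, such as Csnk1d, Gsk3b, Dyrk1a and Crtc2, are not given with their levels. The remaining companions given with values were picked for their role after their values were seen. Alternatives covered scaling, pseudocount, filter, row choice, trend, tissues in the fit, replicate block and leaving out each library. Upstream windows came from RefSeq tables on GRCm38.p6 and were not joined to mm9 coordinates.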

Additional observations from a re-analysis of the deposited data

How the results depend on the processing

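Over 20 alternatives, 522 member results kept their direction and side of the threshold, 10 lost and 4 gained a call, and 4 reversed. Not all alternatives could move a member. Each member had a single row, so the row choice left its values unchanged. Filter, trend, tissues in the fit and replicate block act on the p-value and not on the log2 difference. All brown fat against soleus member calls stood. With TPM rescaling, calls for brown against white fat went to 1795 higher and 6133 lower (members 1 and 5), white fat against soleus had 1869 lower (members higher 2), and the median of all genes between the fats moved from 0.03 to -0.50. With median of ratios scaling, 3867 genes were lower in brown fat than in soleus. Members higher in brown than in white fat were 3 with upper quartile scaling and 3 to 5 when 1 library was left out, lowest without white fat replicate 1. Without the filter, 2 members were higher in white fat than in soleus, the second being Nfatc4. Reversed with TPM between the fats were Ppp3ca -0.44, Nfatc1 -0.25, Nfatc3 -0.33, Gsk3b -0.00975, Dyrk1a -0.13, Csnk1a1 -0.55, Stim1 -0.34 and Crtc2 -0.36, and between white fat and soleus Ppp3r1 0.45, Gsk3a 0.0216, Dyrk2 0.10, Csnk1a1 0.49, Csnk1e 0.28, Crtc1 0.44 and Dnm1l 0.0055. Quantile normalization reversed Csnk1a1 -0.25, Nfatc2ip 0.0783 and Crtc1 0.00978 between the fats, Dnm1l -0.00535 in brown fat against soleus and Gsk3b -0.25 in white fat against soleus. For brown fat against soleus, upper quartile scaling gave Nfat5 -0.00111 and Dnm1l -0.0526, and median of ratios scaling Nfat5 -0.0272, Dnm1l -0.0857, Mef2a -0.23 and Fkbp1a -0.0220. For white fat against soleus, median of ratios scaling gave Fkbp8 -0.0736, Calm2 -0.47, Calm3 -0.15 and Gsk3b -0.36, and upper quartile scaling Calm2 -0.28. The largest FPKM total of a white fat library was 235019, and the smallest outside white fat was 309664, for soleus replicate 1. Setting all totals equal, as TPM rescaling does, therefore raises white fat values relative to those of the other tissues. The cause of the unequal totals, and of the changes with the other settings, was not tested. Same-numbered libraries did not deviate together (r from -0.22 to 0.08), so the numbers were not taken as pairs; with the replicate block, brown fat had 3643 genes above and 3374 below white fat, against 3769 and 3446 without it, and all 27 member results kept their call. Depth is known only in relative terms, so no counting interval can be given for low genes such as Nfatc2 in brown fat and Nfatc4.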
